A study of Xenopus laevis with 9 samples.

Results

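By the raw counts, a group of 46 rarer RNAs of the *X. laevis* egg, out of 44478 genes counted, had 0 reads in every early filtrate and were read in every late one. They were chosen by their measured values in all 9 libraries. A gene was taken if its mean level in the unfiltered extract was from 1 to under 5 CPM (reads on the gene, scaled to a total of 1000000 gene reads in each library), if each of the 3 early filtrates had 0 reads, and if each of the 3 late filtrates reached at least 1/4 of the mean input. Of 3954 genes in that input range, 1256 met the condition on the late filtrates and 673 that on the early ones. The 46 RNAs, which met both, were 1.16% of the range, 3.66% of the 1256 genes and 6.84% of the 673. Because every library took part in the choice, their levels are given as a description, with no test.

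The study spun undiluted cytoplasm of frog eggs, arrested in metaphase, through membranes with nanometre pores, to ask which RNAs pass freely, are held back or pass late. The 3 conditions were the extract before filtration (input, time 0), the filtrate collected at the early time under low pressure (T1) and the filtrate collected at the late time under high pressure (T2), with 3 biological replicates each. By the filtration methods the late filtrate was spun faster than the early one, so that time and pressure cannot be told apart. By the methods for extracts, cytochalasin D and nocodazole, which block the assembly of actin and of microtubules, protease inhibitors and sucrose were added to the extract. The labels name no genetic change of the frogs. Total RNA was depleted of ribosomal RNA before sequencing.

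An egg carries a large store of maternal mRNA, made while the oocyte grows and translated in turn after maturation and fertilization. Much of this store is packed with RNA-binding proteins into ribonucleoprotein particles, some of which gather in larger granules. *X. laevis* is an allotetraploid, and gene symbols ending in L and S mark the copies on its longer and shorter chromosome of each pair.

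The libraries held 65503682 to 90000652 reads on genes in the input, 23509338 to 37265313 at T1 and 60330615 to 93451602 at T2, so that the T1 libraries were the shallowest. They also held the fewest kinds of RNA, with 22149 to 22565 genes read in the input, 16300 to 17651 at T1 and 19308 to 20331 at T2. Of the 3954 genes in the input range, 61 to 84 had 0 reads in an input library. At T1 these were 1480, 1570 and 2079 genes in replicates 1, 2 and 3, and at T2 between 404 and 755. The summed level of 12 egg and germ line genes was 1634 to 1889 CPM in the input, 1368 to 2130 CPM at T1 and 1614 to 1925 CPM at T2, and 0 of the 12 lacked T1 reads. At 5 CPM or more in the input stood 11 of the 12. Of all genes at such levels, T1 reads were lacking for 20 of 2247 from 5 to under 10 CPM and for 0 of 11965 above. Most of the sum was *cpeb1.L*, *ccnb2.L* and *gdf9.L*, other than in T1 replicate 3. There *zp4.L* (297 CPM) and *npm2.L* (212 CPM) stood above *ccnb2.L* (182 CPM). Single markers were uneven in both directions. *gdf9.L* had 126, 165 and 66.9 CPM at T1, against 432, 411 and 301 CPM in the input. *piwil2.L* had 0.0851 CPM in T1 replicate 3, and *asz1.L* had 0.0278 to 0.456 CPM at T1 and 0 in T2 replicate 3. Higher in every T1 library than in every input library were *zp4.L*, *npm2.L* and *figla.L*. Their T1 levels were 144 to 297, 106 to 212 and 28.1 to 53.9 CPM. Their input levels were 56.7 to 73.4, 31.7 to 58.0 and 6.80 to 10.8 CPM. CPM are shares of a library, so that less of an RNA and more of the others cannot be told apart. Since several reads can stem from 1 molecule, the floors set by read numbers account for counting error alone.

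The mean input level of the 46 RNAs ran from 1.03 to 4.36 CPM, with a median of 1.86 CPM. At T1 all 46 stood at 0 in all 3 libraries by the choice, which used the raw counts. In the authors' normalized table, turned back into reads, 3 of the 46 have T1 reads, with at most 562 in a library. Which of the 2 is right is not known. At its mean input level each RNA would have given 24.2 to 162 reads in a T1 library. A floor of 3 reads in each T1 library is 0.0971 CPM as the mean of the 3. The mean input levels stood 10.6-fold to 44.9-fold over that floor, with a median of 19.1-fold. The mean T2 levels stood 10.5-fold to 89.1-fold over it, with a median of 36.2-fold. Since 0 reads at T1 were a condition of the choice, these folds cover counting error alone and are not measured changes. Summed over the 46 RNAs, the level was 101, 89.6 and 88.4 CPM in input replicates 1, 2 and 3, 0 CPM in each T1 library, and 163, 151 and 210 CPM in T2 replicates 1, 2 and 3. Every T2 sum lay above every input sum, and T2 replicate 3 was the highest. The choice kept RNAs with low T2 levels out of these sums.

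**Figure D1:**
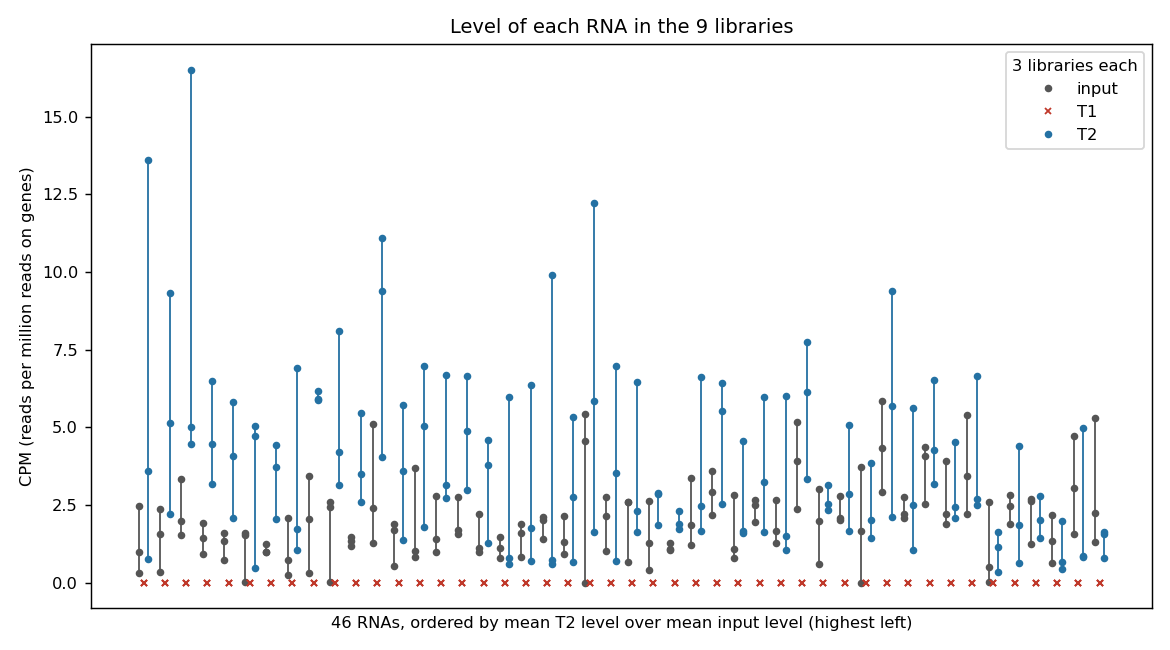
Level in CPM (vertical axis) of the 46 RNAs in each of the 9 libraries, ordered by the ratio of the mean T2 level to the mean input level, with the highest on the left. Points are libraries and lines join the lowest to the highest of a condition; all T1 crosses lie at 0, and the T2 values of most RNAs reach above their input values and spread widely.

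The choice kept out RNAs under 1/4 of their mean input in a T2 library, so the T2 levels are bounded from below. The ratio of mean T2 to mean input level ran from 0.445 to 4.75, with a median of 1.83. It was above 1 for 40 RNAs (87.0%), above 2 for 21 and above 4 for 1, and below 1 for 6. Of 1210 genes with the same input range and T2 condition but a T1 read, 92.1% had a ratio above 1. The median RNA stood at 2.81, 2.51 and 4.78 CPM in T2 replicates 1, 2 and 3, against 2.00, 1.64 and 2.02 CPM in input replicates 1, 2 and 3. The median ratio of a single T2 library to the mean input was 1.58, 1.29 and 2.18. T2 replicate 3 held the highest T2 value of 26 RNAs, against 10 each for replicates 1 and 2. For 16 RNAs every T2 library lay above the mean input, and for 1 RNA none did.

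The replicates of these RNAs spread widely. For 9 of the 46 every T2 library lay above every input library, where 354 of the 1256 genes with the same input range and T2 condition (28.2%) did so. The coefficient of variation between T2 replicates had a median of 0.602, running from 0.0282 to 1.42, and that between input replicates a median of 0.441, running from 0.106 to 1.32. It was larger at T2 than in the input for 31 RNAs. In the input itself 2 of the 46 RNAs had a library with 0 reads. Near 0 in input replicate 3 were also XBXL10_1g4105 and XBXL10_1g30582, with 1 read each, and XBXL10_1g32190, with 2 reads. The lowest count of any of the 46 RNAs in a T2 library was 20 reads.

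The same description was made for the genes around them. The median ratio of T2 to input was 1.83 for the 46 RNAs, against 2.03 for the 1210 of the 1256 genes with a T1 read. A mean T2 level above the mean input was found for 87.0% of the 46 and for 92.1% of the 1210, whose coefficients of variation had medians of 0.544 at T2 and 0.423 in the input. The other 627 genes with 0 reads in each T1 library, which missed the T2 condition, had a median ratio of 0.505 and a median coefficient of variation of 0.699 in the input. Few genes with 0 reads at T1 reached 1/4 of the mean input in every T2 library. Of the 673, 192 reached 1/4 of the mean input in no T2 library, 240 in 1, 195 in 2 and 46 in 3. Of the 3281 genes in the range with a T1 read, 1210 (36.9%) reached it in all 3. The 673 and the 3281 genes were not matched by input level, and 487 of the 673 lay from 1 to under 2 CPM. Of all genes at that level, 267 of 1580 met the T2 condition. From 2 to under 3 CPM 323 of 971 met it, and from 3 to under 5 CPM 666 of 1403. The part of input level in the difference was not tested. The mirrored pattern, 0 reads in each T2 library with each T1 library at or over 1/4 of the mean input, was met by 0 genes of the range, in which 85 genes had 0 reads in each T2 library and 302 met the T1 condition. Every T2 library held more reads on genes than every T1 library, so that 0 reads were harder to reach at T2. For this reason nothing is concluded from the difference between 46 and 0 genes.

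Beside their background over all genes, the calls of edgeR's quasi-likelihood test with TMM scaling and Benjamini-Hochberg adjustment were as follows, and nothing is read from them, since the choice used the same libraries. All 46 RNAs passed the filter on low counts, which left 20148 genes. At an adjusted p-value under 0.05, 34 of the 46 were lower at T1 than in the input, where 5.08% of all tested genes were, and 46 were at an unadjusted p-value under 0.05, where 18.8% of all were. The number was 0 of 46 without input replicate 1, 2 or 3, where 0.605%, 0.622% and 0.901% of all genes were called. It was 30, 10 and 12 without T1 replicates 1, 2 and 3, beside 10.1%, 5.99% and 6.48% of all genes. Without T2 replicates 1, 2 and 3 it was 0, 1 and 10, beside 2.34%, 2.84% and 4.09%. Higher at T2 than at T1 were 0 of 46, where 0.0893% of all genes were, while 46 were at an unadjusted p-value under 0.05, where 14.6% of all were. DESeq2's Wald test called 44 of the 46 in that comparison, beside 9.87% of all genes, and edgeR called 19 without T1 replicate 1, beside 6.61%. Higher at T2 than in the input were 0 of 46 (0.0% of all genes). By DESeq2's Wald test too these were 0 of 46, beside 0.69% of all genes, and by edgeR 0 at an unadjusted p-value under 0.05, where 3.9% of all genes were.

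The 46 RNAs stood at the lower end of a distribution of T1 reads with few genes in its middle. Among the 1256 genes, reads summed over the 3 T1 libraries were 0 for the 46 RNAs, 1 to 3 for 188 genes, 4 to 30 for 69, 31 to 100 for 38, 101 to 300 for 84 and over 300 for 831. At most 3 reads were thus found for 234 genes (18.6%) and over 100 for 915 (72.9%), with 107 (8.52%) in between. The median T2 to input ratio was 1.85 for the genes with 1 to 3 T1 reads, 1.88 for those with 4 to 30 and 2.16 for those with over 300, beside 1.83 for the 46. Their median input levels were 2.66, 3.15 and 3.30 CPM, above the 1.86 CPM of the 46.

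**Figure D2:**
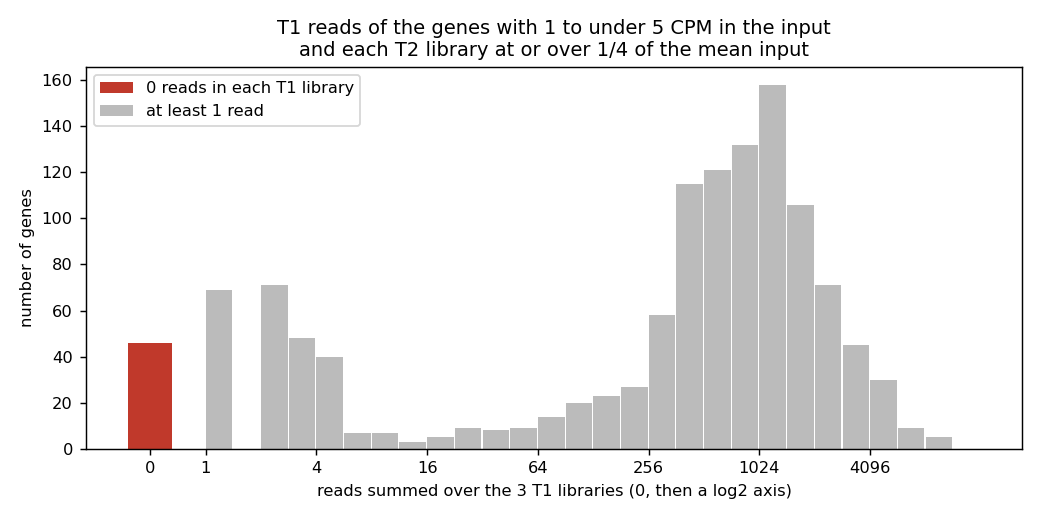
Number of genes (vertical axis) by the reads summed over the 3 T1 libraries (horizontal axis, 0 first and then a log2 scale), for the 1256 genes from 1 to under 5 CPM in the input with each T2 library at or over 1/4 of the mean input. The red bar holds the 46 RNAs with 0 reads and adjoins 188 genes with 1 to 3 reads. Above these lie 107 genes with 4 to 100 reads, 84 with 101 to 300 and 831 with over 300, where the peak stands.

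Single T1 libraries were split in the same way, between few reads and many. Of the 1256 genes, 643 had reads in all 3 T1 libraries, 389 had 0 reads in 1 of them, 178 in 2 and 46 in 3. To see a T1 library that had no part in the choice, the choice was made with the T2 condition and 2 of the T1 libraries alone. It gave 122 genes without T1 replicate 1, of which 46 (37.7%) had 0 reads in that library, against 18.3% of the 1256 genes. Without T1 replicate 2 it gave 119 genes, of which 46 (38.7%) had 0 reads there, against 19.3%. Without T1 replicate 3, the shallowest library, it gave 75 genes, of which 46 (61.3%) had 0 reads there, against 32.7%. The mean of the 3 shares was 45.9% ± 13.4 for these genes and 23.4% ± 8.06 for the 1256 (SD over the 3 libraries left out). The genes at 0 in the library left out were the same 46 each time, so the 3 shares are not independent. The 1256 genes include the 46 and were not matched to them by input level. Its median was 1.86 CPM for the 46 and 3.17 CPM for the 1210 with a T1 read. For these reasons nothing is concluded from the difference in shares.

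In the library left out, the genes that were not at 0 mostly had, like the 1256 genes as a whole, either 1 to 3 or over 30 reads. For T1 replicate 1, 37 of the 122 genes had 1 to 3 reads, 3 had 4 to 30 and 36 had over 30. Of those 36, 31 stood above their own mean input level. The library of T1 replicate 2 gave 41, 2 and 30 genes, with 26 above their mean input, and that of T1 replicate 3 gave 22, 3 and 4, with 4 above their mean input. Over 30 reads in the library left out were thus found for 29.5%, 25.2% and 5.33% of these genes, against 54.2%, 50.6% and 30.3% of the 1256 genes in T1 replicates 1, 2 and 3. For 1 to 3 reads the shares were 30.3%, 34.5% and 29.3%, against 23.7%, 26.5% and 34.3% of the 1256. Genes with over 3 reads in the library left out had medians of 338, 434 and 351 reads in T1 replicates 1, 2 and 3. Genes with 0 reads in 2 T1 libraries thus stood above their mean input in the remaining one in 31 of 122, 26 of 119 and 4 of 75 cases. Levels above the mean input were not counted over the 1256 genes, so that nothing is concluded from these cases. The share at 0 was highest in T1 replicate 3, which had the fewest reads on genes, and the part of depth in it was not tested.

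**Figure D3:**
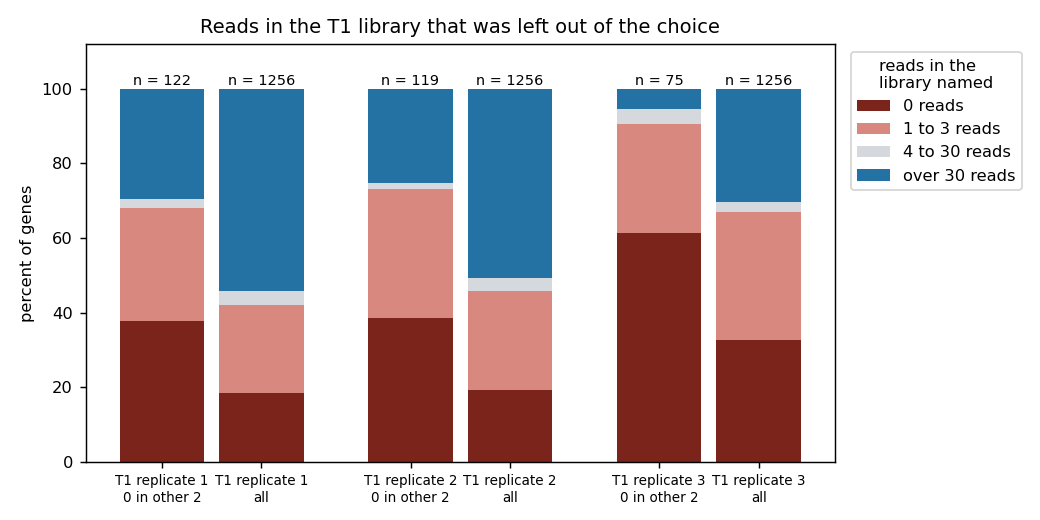
Percent of genes (vertical axis) with 0, 1 to 3, 4 to 30 and over 30 reads in the T1 library named below each bar. In each pair the left bar holds the 122, 119 or 75 genes chosen with 0 reads in the other 2 T1 libraries. The right bar holds all 1256 genes of the input range with the T2 condition. The left bars have larger shares at 0 reads (37.7%, 38.7% and 61.3%) and smaller shares with over 30 reads (29.5%, 25.2% and 5.33%) than the right bars. The genes at 0 reads in the left bars are the same 46 in each pair, and the bars are not matched by input level.

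The share of genes with 0 reads in all T1 libraries followed the input level. It was 487 of 1580 genes (30.8%) from 1 to under 2 CPM in the input, 125 of 971 (12.9%) from 2 to under 3 CPM and 61 of 1403 (4.35%) from 3 to under 5 CPM. The 46 RNAs fell at the low end too, with 28 of them from 1 to under 2 CPM, 12 from 2 to under 3 and 6 from 3 to under 5. As a share of the genes that met the T2 condition at each level, these were 10.5%, 3.72% and 0.901%. Outside the input range, the same T1 and T2 conditions were met by 15 of 1543 genes from 0.5 to under 1 CPM, by 5 of 2247 from 5 to under 10 CPM and by 0 of 11965 at 10 CPM or more.

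**Figure D4:**
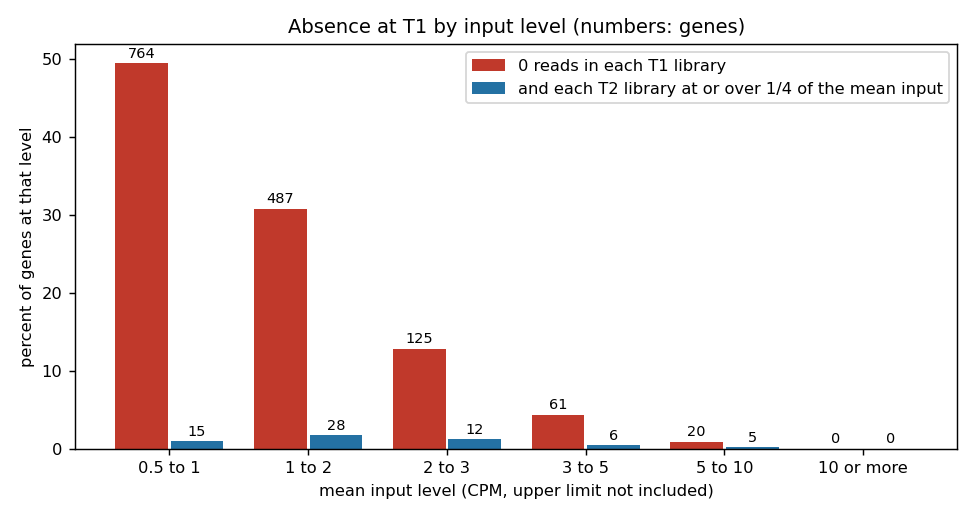
Percent of the genes at each mean input level (horizontal axis, CPM) that had 0 reads in each T1 library (red) and that in addition had each T2 library at or over 1/4 of the mean input (blue), with the number of genes above each bar. The red bars step down with the input level, with 487, 125 and 61 genes from 1 to under 5 CPM, and the blue bars hold 28, 12 and 6.

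The thresholds passed through closely spaced values. The RNA nearest the lower input limit on the inside was XBXL10_1g26076, at a mean input of 1.03 CPM, and 6 genes that met the other conditions lay just outside, at 0.924 to 0.983 CPM. On the T2 limit, LOC108710851 lay just inside, with a lowest T2 library of 0.263 of its mean input, and XBXL10_1g23033 (0.249) and XBXL10_1g22734 (0.218) just outside.

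Symbols were at hand for 3 of the 46 RNAs, from the part of the source sheet read here, which has 1999 entries. The genes found in it come from a stretch of the sorted IDs and are no random sample of all genes. The markers and gene lists drawn from it cover that part only. Of those entries, 341 were in the input range, 98 of them also met the T2 condition and 3 were among the 46. Positions below are those of the RefSeq gene table of assembly Xenopus_laevis_v10.1, the build to which the reads were aligned.

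The first was *laptm5.S* (XBXL10_1g10059), for a lysosomal membrane protein known in mammals from blood cells, on chromosome 2S from 74470203 to 74494261. It had 2.61, 0.652 and 2.59 CPM in input replicates 1, 2 and 3, 0 reads in each T1 library, and 1.64, 2.32 and 6.45 CPM in T2 replicates 1, 2 and 3. The T2 libraries averaged 3.47 ± 2.60 CPM and the input 1.95 ± 1.12 CPM (SD, n = 3 each), a ratio of 1.78, and the values overlapped. The mean input level was 20.1-fold over the T1 floor of 3 reads.

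*laptm5.S* was also one of 5 leukocyte markers followed as a sign of other cells. Their summed level was 5.07 to 9.88 CPM in the input, 6.33 to 32.0 CPM at T1 and 17.8 to 20.5 CPM at T2, and 2 of the 5, *laptm5.S* and *cd74.L*, had no T1 read. Nearly the whole T1 sum was *tbxas1.L*, for thromboxane synthase, at 6.30, 15.8 and 31.9 CPM. *cd74.L*, for the invariant chain of class II histocompatibility molecules, had 0.0321, 6.25 and 0 CPM at T2 and 2.78, 0.0142 and 0.678 CPM in the input, and so missed the T2 condition. Of 3 fibroblast markers, summing to 0.184 to 3.58 CPM in the input, 0 to 14.4 CPM at T1 and 0.610 to 5.79 CPM at T2, *postn.S* and *dcn.L* had no T1 read, and *postn.S* had 0.128, 2.17 and 4.59 CPM at T2. The other, *fbln1.L*, went the other way in T1 replicate 1. It had 14.4, 0 and 0.0425 CPM at T1, against 0.397, 0.0283 and 1.26 CPM in the input. The 3 endothelium markers summed to 1.39 to 10.9 CPM in the input and 1.71 to 10.6 CPM at T2. In T1 replicates 1, 2 and 3 they summed to 23.6, 0.0537 and 0.0425 CPM. All 3 had a T1 read, but nearly the whole T1 sum was *stab2.L* (12.5 CPM) and *ptprb.L* (11.0 CPM) in replicate 1. *vwf.L* had 0, 0.0268 and 0 CPM at T1 and 0 CPM in each T2 library, against 1.25, 0.751 and 0.456 CPM in the input. The granulosa marker *kitlg.L* had 0.504, 0 and 0.833 CPM in the input, 0.0278, 0 and 0 CPM at T1, and 3.39, 0.0117 and 6.66 CPM at T2. Under 1 CPM in the mean input were 2 of the 5 leukocyte, 2 of the 3 fibroblast and 2 of the 3 endothelium markers, and *kitlg.L*. Of all genes, 49.5% from 0.5 to under 1 CPM in the input had 0 reads in each T1 library. From 1 to under 2 CPM these were 30.8%. The part of other cells in the levels of *laptm5.S* and the rest of the 46 RNAs was not tested.

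The second was *eva1b.S* (XBXL10_1g10097), for a membrane protein of a family named after an axon guidance gene of *C. elegans*, on chromosome 2S from 77678105 to 77687110. Input replicates 1, 2 and 3 had 0.977, 2.79 and 1.40 CPM, each T1 library had 0 reads, and T2 replicates 1, 2 and 3 had 3.15, 2.72 and 6.70 CPM. The mean was 4.19 ± 2.18 CPM at T2 and 1.72 ± 0.949 CPM in the input (SD, n = 3 each), a ratio of 2.43. The lowest T2 library lay just under the highest input library. The T1 floor of 3 reads lay 17.7-fold under its mean input level.

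The third, LOC108710851 (XBXL10_1g12119), on chromosome 3L from 31200161 to 31342517, is given in the sheet with the human match GABRB2, the gene for a subunit of the GABA-A receptor, a chloride channel of inhibitory synapses. It had 5.31, 2.24 and 1.32 CPM in the input, 0 reads in each T1 library, and 1.55, 1.62 and 0.779 CPM at T2. With a T2 mean of 1.32 ± 0.466 CPM and an input mean of 2.96 ± 2.09 CPM (SD, n = 3 each), its ratio of 0.445 was the lowest of the 46. For LOC108710851 the mean input level was 30.5-fold over the T1 floor of 3 reads. Of 4 neuron markers, summing to 49.2 to 58.9 CPM in the input, 0.298 to 46.3 CPM at T1 and 50.6 to 99.0 CPM at T2, only *nefl.L*, for a neurofilament protein, had no T1 read. It had 0.840, 0.142 and 0 CPM in the input, and was the only neuron marker with a mean input under 1 CPM. Low T1 levels were not confined to *nefl.L*. Most of each sum was *gria1.L* and *grm8.L*. In T1 replicates 1, 2 and 3 *gria1.L* had 16.4, 0.0537 and 0.170 CPM, against 12.7 to 23.1 CPM in the input. *grm8.L* had 29.8, 37.2 and 0.0851 CPM there, against at least 35.4 CPM in each input library. *cntn1.L* had 0.0278, 0 and 0.0425 CPM at T1, against 3.02, 0 and 0.0111 CPM in the input.

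The 43 RNAs without an entry cannot be described by role. XBXL10_1g24513 had the highest ratio of the 46 (4.75, or 2.25 on the log2 scale). It had 3.61, 13.6 and 0.746 CPM at T2, against 0.992, 2.46 and 0.322 CPM in the input. T2 replicate 2 carried this ratio, and T2 replicate 3 lay below the input mean of 1.26 CPM. Next came XBXL10_1g26007 (log2 ratio 1.96), with 2.23, 5.14 and 9.33 CPM at T2, against 1.57, 0.354 and 2.38 CPM in the input. For this gene the authors' normalized table, turned back into reads, holds 397 reads in T1 replicate 2 where the raw table holds 0.

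At the low end without a symbol, XBXL10_1g15283 (log2 ratio -0.48) had 0.824, 0.855 and 4.99 CPM at T2, against 3.04, 1.56 and 4.72 CPM in the input. T2 replicates 1 and 2 lay below every input library and T2 replicate 3 above. XBXL10_1g42555 (log2 ratio -0.44) had 1.97, 0.656 and 0.448 CPM at T2, against 1.34, 2.18 and 0.644 CPM in the input. In both RNAs the range of the T2 libraries overlapped that of the input.

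Around the 46 RNAs stood 188 genes that met the input and T2 conditions with 1 to 3 T1 reads in all, 69 of them with a single read, and 12 of them with a gene name in the sheet. The 4 named genes with 1 T1 read were picked after their values were seen. *dusp1.L*, for a phosphatase that inactivates MAP kinases, had 1.97, 9.53 and 18.0 CPM at T2, against 4.93, 5.47 and 3.79 CPM in the input. *sugt1.S*, for a co-chaperone of HSP90, had 2.41, 5.91 and 6.07 CPM at T2, against 1.19, 0.722 and 2.62 CPM in the input. The levels of *rnf14.1.L*, for a ubiquitin ligase, were 8.59, 2.47 and 9.95 CPM at T2 and 7.59, 1.73 and 0.944 CPM in the input, where replicate 1 was within the T2 values. Those of *sowaha.L*, for an ankyrin repeat protein, were 2.47, 1.17 and 8.67 CPM at T2 and 4.63, 0.850 and 0.267 CPM in the input. All 4 had a ratio of T2 to input between 2.05 and 3.17. LOC108709919, given with the human match PHF6 and also with 1 T1 read, had 2.82, 3.01 and 5.60 CPM at T2, against 3.40, 1.49 and 2.36 CPM in the input, a ratio of 1.58.

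**Figure D5:**
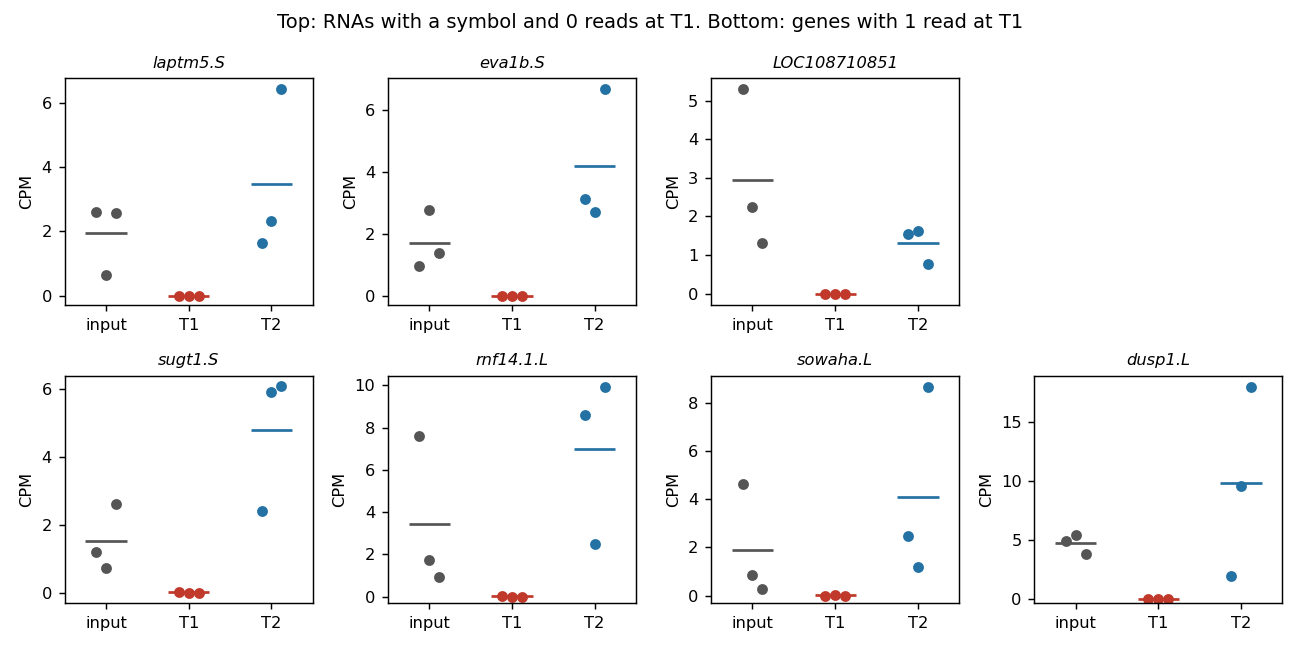
Level in CPM (vertical axes, each with its own scale) in the 3 libraries of the input, T1 and T2, with a bar at each mean, for the 3 RNAs with a symbol among the 46 (top) and the 4 named genes with 1 T1 read (bottom). T1 points lie at or near 0 throughout, and the T2 mean is above the input mean in each panel other than that of LOC108710851.

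The gene lists were drawn up by gene name from the same 1999 entries. Only 2 of the 46 RNAs have a gene name there and could be listed, and the lists held 0 of these. LOC108710851, which has no gene name, was not listed, although its human match is a receptor and channel gene. Of 39 genes for cilia and the axoneme, 6 were in the input range, 3 of those met the T2 condition and 0 had 0 reads in each T1 library. Of 38 developmental transcription factors, 10 were in the range, of which 4 had 0 reads in each T1 library but 0 met the T2 condition. Ligands, receptors, adhesion and matrix genes numbered 81, with 25 in the range, 9 at 0 in each T1 library and 4 with the T2 condition. Of 46 channels and transporters, 8 were in the range, with 1 at 0 in each T1 library and 1 with the T2 condition. Of 59 genes of constitutive families, such as ribosomal proteins, the proteasome and the respiratory chain, 14 were in the range, 0 were at 0 in each T1 library and 6 met the T2 condition. Over all 341 entries in the range, 54 were at 0 in each T1 library and 98 met the T2 condition.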

How the data were processed

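Per the paper's methods, reads were checked with FastQC, trimmed with Trim Galore and aligned to the *X. laevis* v10.1 genome with STAR, and the authors deposited whole-number read counts per gene. The authors also deposited a signal table of counts divided by DESeq2 size factors. All values in it (100%, tolerance 0.05 reads) came back as whole reads, and a rerun on these reads was added once the tables had been seen. All 46 RNAs are in that table, 39 with identical reads, and 3 have T1 reads there (at most 562). The rule applied to it gave 46 genes, 43 of them shared.

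Rows for reads not on a gene stayed out of library sizes and tests, among them aligned reads on no gene, 26.2% to 40.3% of a library's reads on a gene, on no gene or on several. CPM used the sum of gene reads. Tests used edgeR 4.0.16 (TMM, filterByExpr, quasi-likelihood, condition only, all 9 libraries) in R 4.3.3, with DESeq2 1.42.0 as an alternative. The edgeR code alone was run on simulated data. Their spread was not matched to these replicates, so that nothing about the calls follows from that run. The paper states no test per gene. Ratios are of mean CPM. Named are RNAs with a symbol, the 2 highest and 2 lowest ratios without one and genes at the thresholds. The RNAs and gene lists were chosen with earlier results of these data known. Alternatives changed the scaling, thresholds, filter, test and replicates.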

Additional observations from a re-analysis of the deposited data

How the results depend on the processing

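The number of RNAs depended most on single libraries and on the demand for exactly 0 reads. It was 46 as reported, 173 with at most 1 read in each T1 library and 272 with at most 3, and between 44 and 143 when 1 of the 9 libraries was left out (75 to 122 without a T1 and 84 to 143 without a T2 library, where the rule has 1 condition fewer). It was 33 and 54 with the T2 limit at 1/2 and 1/8, 45 with TMM factors and 44 with median-of-ratios size factors (44 shared in each). The mean share at 0 in the T1 library left out was 44.6% with the T2 limit at 1/2 and 32.5% from 2 to under 5 CPM, against 22.3% and 20.3% of the genes meeting the T2 condition. These shares have the limits given above. The median log2 ratio of T2 to input was 0.87, or 0.86 with TMM factors, 0.81 with median-of-ratios size factors and 0.65 to 1.00 with a library left out.

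As above, nothing is read from the calls, since the choice used the same libraries. By edgeR the number called lower at T1 than in the input was 34, beside 1023 of 20148 genes. With no filter beyond 1 count it was 7, beside 802 of 25524. With the replicate block it was 0, beside 573 of 20148, and 43 at an unadjusted p-value under 0.05, beside 3402. The number called ran from 0 to 30 with a library left out, beside the shares of all genes given above. Under the other alternatives it ran from 29 to 45. It was 29 with median-of-ratios size factors, beside 890 of 20148 genes, and 45 with DESeq2's Wald test, beside 2693 of 20148. The number called higher at T2 than at T1 was 0, beside 18 of 20148 genes, and 0 with the replicate block, beside 0 of 20148. It was 44 with DESeq2's Wald test, beside 1988 of 20148. With a library left out it was 0 to 19, the 19 without T1 replicate 1 beside 1433 of 21668. It was 0 under the other alternatives. For these changes the cause was not tested. The paper names 3 independent biological samples, so that an input, a T1 and a T2 library may share an extract. The labels do not state that equal replicate numbers mark it, and the main fit did not take them as pairs. The deviations of same-numbered libraries correlated at 0.0076 to 0.21 (input and T1), -0.037 to 0.39 (input and T2) and 0.091 to 0.11 (T1 and T2). Every library correlated best with its own number only between T1 and T2. There, libraries of different number correlated at -0.060 to -0.044. The 0 reads at T1 are limited by depth, 3 reads being 0.0805 to 0.128 CPM there.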
